A study of Mus musculus with 4 samples.

Results

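The growth hormone and insulin-like growth factor (IGF) axis was examined in ATAC-Seq peak lists of mouse rib chondrocytes, the cells of cartilage. The set held 10 genes of the 18103 protein-coding genes found in both annotations used. They were chosen by name for their roles in linear growth and not for a measured value, though with earlier results of these data known. The members were the ligands Igf1 and Igf2, the receptors Ghr, Igf1r and Igf2r, the binding proteins Igfbp2, Igfbp3, Igfbp4 and Igfbp5, and Npr2. A promoter peak was a called peak with its summit within 1 kb of any annotated transcription start site (TSS) of the gene, and the region of a gene was its body plus 50 kb on each side.

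ATAC-Seq reads open chromatin from the places where the Tn5 transposase inserts adapters. All 4 libraries came from primary chondrocytes of rib cartilage, taken from newborn mice per the study's methods. The labels give the first 2 libraries, Cho replicates 1 and 2 (Cho1 and Cho2 below), no genotype. The other libraries were labelled WT and E160(delta/delta);E308(delta/delta), here the double deletion, whose label gives both copies of E160 and E308, elements upstream of Sox9, as deleted. The double-deletion mice were made by CRISPR/Cas9 editing of C57BL/6J embryos in sequential steps, and no agent or Cre is named for any group. The methods call the ATAC-Seq replicates biological, without saying whether the Cho libraries came from separate litters or cultures, and the study describes the WT and deletion mice as littermates. WT and the deletion had 1 library each, so every difference between them below is a difference between 2 libraries, with no p-value.

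The lists differed in depth, and peak numbers are read against that. Background tags per Mb of genome were 6840 in Cho1, 20819 in Cho2, 4628 in WT and 8694 in the double deletion, and the lists held 76242, 148330, 90971 and 169591 peaks. As a check of the genotype labels, the E160 interval held a peak in WT with a fold enrichment of 13.4 and none in the double deletion, and the E308 interval went from 15.4 to 3.08. A peak was still called in E308 in the library labelled as the double deletion, where the study describes none as detectable. The study checked the deletion by genomic PCR, and the interval is that of its ATAC-Seq peak. In the 10 regions, deletion peaks of 3.08 with no WT peak over them had a summit pileup of 4. That is the smallest pileup called in that list. The cause of the E308 call was not tested. Of 9 chondrocyte marker genes found, 5 had a promoter peak in Cho1 (62.6% of all protein-coding genes). In each other library 8 did (69.3% of all genes in Cho2, 65.9% in WT and 71.4% in the double deletion). Comp was uncalled in every library, and Acan, Col11a2 and Matn1 were uncalled in Cho1 as well. Among blood and liver genes, 0 of 3 and 0 of 3 had a promoter peak in any library. Genes of other cell types were called as well, with 3 to 5 of 5 fibroblast and perichondrium genes, 2 or 3 of 4 endothelial genes, 0 to 2 of 5 muscle genes and 0 or 1 of 3 keratinocyte genes, depending on the library. Osteoblast genes were called at 4 of 4 in Cho2 and at 0, 1 and 2 of the 3 found for Cho1, WT and the double deletion. The part of other cells in the values below was not tested.

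Growth hormone acts through its receptor, GHR, and raises IGF1 in liver and in growth plate cartilage. IGF1 and IGF2 signal through the tyrosine kinase IGF1R, IGF2R carries IGF2 to lysosomes, and the binding proteins hold the ligands in the extracellular space and set how much reaches the receptor. NPR2 is the receptor for C-type natriuretic peptide, a separate signal that promotes growth of the same cartilage. Igf2 and Igf2r are imprinted, and the noncoding RNA Airn runs through Igf2r from a start site inside that gene.

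The strongest peaks of these regions lay mostly away from the members' promoters, as for most genes. The strongest peak was at an own start site for 25.8% of all genes in WT and 19.3% in the double deletion. The results below turn on 5 distal sites, which are shown here. They were not the strongest of their regions in every library, and the Ghr site had a fold enrichment of 4.41 in WT. Each run is 201 bases of the plus strand of NCBIM37 (mm9), 5′ to 3′, centred on the WT summit, and none overlaps an annotated exon. Capitals mark matches to 4 motif sets searched on both strands: AP-1 (TGANTCA), STAT (TTCNNNGAA), the SOX core (ACAAAG and ACAATG) and CRE (TGACNTCA).
Igf1 intron site, chr10:87342869-87343069: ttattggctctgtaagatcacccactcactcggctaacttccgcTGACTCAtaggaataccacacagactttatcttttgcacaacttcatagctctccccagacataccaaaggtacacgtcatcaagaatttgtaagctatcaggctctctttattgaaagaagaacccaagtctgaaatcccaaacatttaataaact
Ghr intron site, chr15:3494330-3494530: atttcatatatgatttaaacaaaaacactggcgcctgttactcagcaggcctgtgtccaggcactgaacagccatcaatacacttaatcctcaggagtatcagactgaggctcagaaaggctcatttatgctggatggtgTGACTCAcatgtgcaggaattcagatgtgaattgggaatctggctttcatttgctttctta
Igf1r intron site, chr7:75166738-75166938: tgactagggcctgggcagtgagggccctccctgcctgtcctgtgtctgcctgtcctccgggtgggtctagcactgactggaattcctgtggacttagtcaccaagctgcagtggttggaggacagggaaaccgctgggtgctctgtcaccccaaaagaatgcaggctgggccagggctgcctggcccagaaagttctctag
Igfbp3 upstream site, chr11:7137833-7138033: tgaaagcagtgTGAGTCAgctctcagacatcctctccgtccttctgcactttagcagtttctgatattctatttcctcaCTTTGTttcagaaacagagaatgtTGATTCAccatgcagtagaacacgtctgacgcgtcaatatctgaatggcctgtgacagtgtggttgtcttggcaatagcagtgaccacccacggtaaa
Igf2 upstream site, chr7:149861634-149861834: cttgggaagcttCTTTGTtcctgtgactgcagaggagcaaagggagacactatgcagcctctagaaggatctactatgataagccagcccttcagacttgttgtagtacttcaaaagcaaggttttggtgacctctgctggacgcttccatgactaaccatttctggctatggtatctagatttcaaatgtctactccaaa

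The Igf1 and Ghr sites each held 1 AP-1 match, the Igfbp3 site held 2 AP-1 matches and 1 SOX core match, the Igf2 site held 1 SOX core match, and the Igf1r site held none. Over all 90971 WT peaks, windows of this length held AP-1 in 19.4%, the SOX core in 17.7%, STAT in 6.93% and CRE in 5.21%. Over the 133 WT peaks of the 10 regions the shares were 13.5%, 15.8%, 5.26% and 6.02%. Windows outside called peaks were not searched, and a match is a description of the sequence alone.

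Promoter peaks were found at nearly all members. Cho1 had one at 9 of 10 members (62.6% of all protein-coding genes), Cho2 at 10 (69.3%), WT at 9 (65.9%) and the double deletion at 10 (71.4%). Both Cho replicates had one at 9 members (60.1%), and all 4 libraries at 8 (58.8%). The exceptions were Igf1, not called in WT, and Npr2, not called in Cho1.

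By fold enrichment, the promoter peaks were low among promoters. Fold enrichment is the summit pileup over the local background, with 1 added to both. The Cho1 list used 1 constant background, so its fold enrichments are not on the footing of the others. Its median over the members with a promoter peak was 8.45 in Cho1, 8.99 in Cho2, 6.50 in WT and 7.88 in the double deletion, against 12.7, 17.8, 12.8 and 12.6 over all genes with a promoter peak. In WT, 9 of 9 members lay below the median promoter, between the 1.16 and 43.0 percentiles. In the double deletion 9 of 10 did, with Igfbp4 at the 57.2 percentile. Cho2 had 8 of 10 below, the exceptions being Igf1 and Ghr, and Cho1 had 7 of 9. These ranks depend on the local background, which at the Igf2 promoter in WT was 11.8 times the library background. The pileup there was 72.0 times the library background. Ranks by pileup over library background were not computed. Over the 9 members with a promoter peak in both Cho replicates, the median of the replicate means was 6.86. The strongest peak of the region lay at an own start site for 0 of 10 members in WT (25.8% of genes), 0 in the double deletion (19.3%), and 1 in each Cho replicate, which was Igf2 in replicate 1 (24.5%) and Igf1 in replicate 2 (18.5%).

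**Figure D1:**
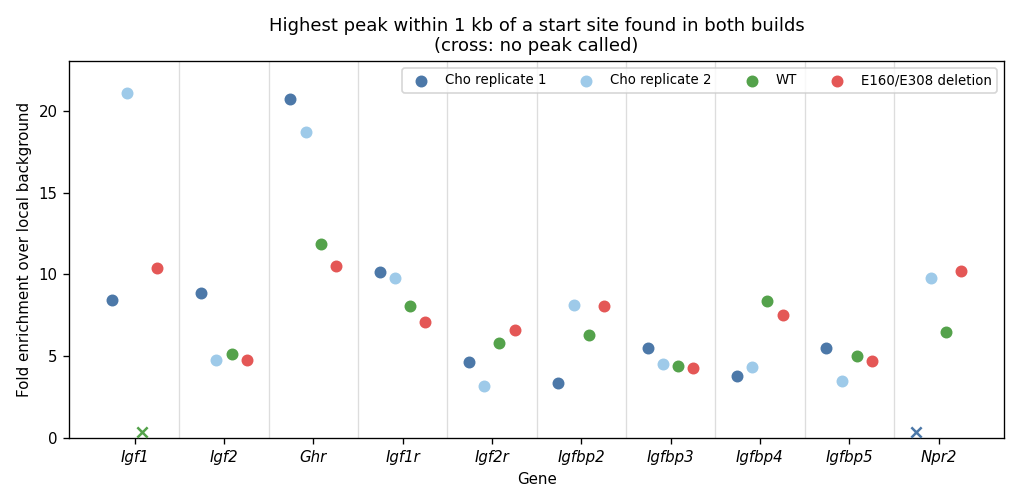
Fold enrichment (y axis) of the highest peak within 1 kb of a start site whose RefSeq promoter sequence was found in both genome builds, for each gene (x axis); each dot is 1 library and a cross marks no called peak. Igf1 has no WT dot and Npr2 no Cho1 dot, and Ghr has the highest WT dot at 11.8.

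Because Cho2 used positions of another build, promoter values from here on are at the start sites whose RefSeq promoter sequence was found in both builds. All 15 such sequences of the 10 members were found.

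Igf1 encodes the ligand that growth hormone induces. Its promoter peak had a fold enrichment of 8.45 in Cho1, with the summit 383 bp upstream of the RefSeq start site, 21.1 in Cho2 (406 bp upstream) and 10.4 in the double deletion (398 bp upstream). The mean of the Cho replicates was 14.8 ± 8.94 (SD, n = 2), and the double deletion lay between the replicates. WT had no called peak there or anywhere within 2 kb of a start site of Igf1. Of the 10845 genes with promoter peaks in the other 3 libraries, 207 (1.91%) lacked one in WT.

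The WT list allows a limit on that site rather than a zero. With the local background of the double deletion carried over, the highest pileup that WT could hold uncalled was 4, which is 28.9% of the value in the double deletion on the scale of library background (95% interval 7.29% to 84.1%, counting error only) and 20.1% of that of Cho2 (5.37% to 52.9%). At the level of the double deletion, WT would have had a pileup of 13.8. The summit lies in an annotated UTR of Igf1 and in an intron of Gm16176, an antisense transcript, and ATAC-Seq does not tell the strands apart.

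The strongest intron site of Igf1 lay 19113 bp downstream of the start site and was called in all 4 libraries. Fold enrichment there was 29.6 in Cho1, 19.6 in Cho2, 8.11 in WT and 18.4 in the double deletion. WT was the lowest of the 4 by fold enrichment, and it was the only site of the 22 in the Igf1 region that all libraries shared. WT also had a weaker summit at 19505 bp, with a fold enrichment of 4.25, overlapped by the same deletion peak.

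On the log2 scale the deletion peak was higher than WT by 1.19 at the main summit and by 2.12 at the weaker one. Taken as summit pileup over library background, a scaled pileup that leaves the local background out, the ratio was 1.73 (0.926 to 3.43) at the main summit, where the interval includes 1. Cho2 and not WT was lowest on that scale, with 50.4 in Cho1, 30.2 in Cho2, 38.8 in WT and 67.1 in the double deletion. At the weaker summit it was 3.46 (1.54 to 9.13), but the deletion summit lies 435 bp away and is the counterpart of the main one.

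A site 112995 bp downstream of the Igf1 start, beyond the gene, had fold enrichments of 17.6 in Cho2, 8.82 in WT and 9.84 in the double deletion and was not called in Cho1. The reverse held 44154 bp upstream, at a site with 19.8 in Cho1 and 7.79 in the double deletion and no call elsewhere. The WT peak of highest fold enrichment with no deletion peak over it, 45404 bp inside Igf1, had 5.88 and was called in no other library.

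**Figure D2:**
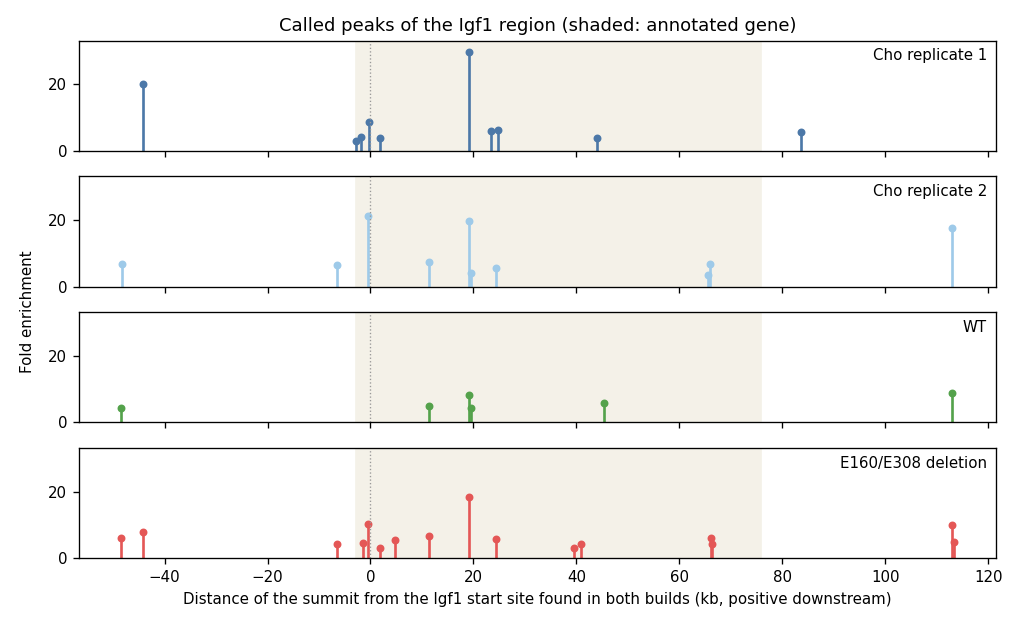
Each stem is a called peak of the Igf1 region, placed by the distance of its summit from the start site in kb (x axis) and as high as its fold enrichment (y axis), with 1 panel per library and the annotated gene shaded. The stem near 0 is missing in WT, and the intron stem near 19113 bp is in all 4 panels and lowest in WT.

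Igf2 encodes the fetal growth factor. It had 3 promoter sites, and the highest promoter fold enrichments were 8.87 in Cho1, 4.75 in Cho2, 5.13 in WT and 4.78 in the double deletion. The WT summit lay 9459 bp downstream of the first start site and the other summits at 7301 to 7337 bp. The local background in WT was 11.8 times the library background at the 9459 bp summit. The pileup itself was 72.0 times the library background there and 59.1 times in the overlapping deletion peak, a ratio of 0.821 (0.484 to 1.41), and at the 7331 bp WT summit the ratio was 0.953 (0.553 to 1.68). By that measure the Igf2 promoter in WT was close to Igf1r, at 74.8, although its fold enrichment was lower. The lincRNA Igf2as starts 190 to 214 bp from the Cho1, WT and deletion summits of the site near 7331 bp.

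The highest Igf2 peak in Cho2, WT and the double deletion was not a promoter but the intergenic site 9013 bp upstream shown above. Its fold enrichment was 21.6, 10.1 and 15.4 in those libraries, and Cho1 had no call there. The nearest start site was that of another gene, Ins2, 3704 bp from the WT summit. A site 10590 bp downstream of the first start site, 1230 bp from the start of Mir483, had 5.91, 13.4, 7.17 and 6.80 in Cho1, Cho2, WT and the double deletion, and by pileup it was the strongest of the gene in Cho2, WT and the double deletion, at 102, 105 and 91.0 times the library background. In Cho1 it stood at 9.50, below the 14.6 of the promoter site at 7313 bp.

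Ghr, the growth hormone receptor gene, had the strongest promoter of the members in WT. Fold enrichment was 20.7 in Cho1, 18.7 in Cho2, 11.8 in WT and 10.5 in the double deletion. The Cho mean was 19.7 ± 1.40 (SD, n = 2). By scaled pileup the order differed, with Cho1 lowest at 35.1, against 108 in Cho2, 97.0 in WT and 78.3 in the double deletion. The deletion to WT log2 ratio was -0.17, and the ratio of scaled pileups was 0.807 (0.513 to 1.28).

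Away from its promoter, Ghr showed the widest gap between WT and the double deletion of the 10 regions. The region held 15 peaks in Cho1, 31 in Cho2, 11 in WT and 46 in the double deletion, a deletion to WT ratio of 4.18. All 10 regions together gave 1.84, and all protein-coding regions gave 1.80. Of 12906 gene regions with 5 or more WT peaks, 13 (0.101%) had a ratio at least as high as that of Ghr, and 523 (4.05%) at least as high as that of Igf1, which had 6 WT and 16 deletion peaks.

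The gap narrowed when each list was reduced to its 76242 strongest peaks, and the ratio stayed above 1. Ghr then had 15, 12, 9 and 16 peaks, a ratio of 1.78 against a median of 0.933, and 58 of 12160 regions (0.477%) were at or above it. The Ghr region had a GC content of 39.1%, against a median of 44.5% over all regions, and the ratio was higher in regions of low GC, with a median of 1.88 in 507 regions under 40% GC and 1.57 in 7770 regions of 45% or more. Of the 507, 3 (0.592%) had a ratio at least as high as Ghr. The part of GC content and depth in the Ghr counts was not tested beyond these values.

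Joined across libraries by distance from the start site, the Ghr region held 50 sites, of which 3 were called in all 4 libraries, 13 in the double deletion alone (26% against 12.95% of sites over all genes) and 0 in WT alone (0.95% over all genes). Both Cho replicates and the double deletion shared 7 sites that WT lacked, 14% of the Ghr sites against 4.12% of sites over all genes. Among the deletion peaks of Ghr, 36 of 46 had no WT peak over them, the strongest in the intron 141688 bp downstream with a fold enrichment of 8.61. Cho2 had 10.8 at that site and Cho1 no call.

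The Ghr intron site 38922 bp downstream, shown above, was called in all 4 libraries, with fold enrichments of 14.4 in Cho1, 9.81 in Cho2, 4.41 in WT and 15.4 in the double deletion. The scaled pileups were 24.1, 14.3, 13.8 and 38.3, with WT next to Cho2 at the low end. The log2 ratio of deletion to WT was 1.80, and the scaled ratio was 2.77 with an interval of 1.03 to 9.29, from pileups of 5 and 24. A second intron site at 52081 bp had 5.88 in WT and 12.3 in the double deletion, a log2 ratio of 1.06, with a scaled interval that includes 1 (0.630 to 4.41).

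The strongest Ghr-region peaks in other libraries lay elsewhere. Cho1 had 24.5 at 4761 bp upstream, where the double deletion had 7.98 and the other libraries no call. Cho2 had 21.0 in the gene at 238557 bp, where WT had 5.14 and the double deletion 7.99. The highest distal WT value, 11.8 at 312368 bp, lay 14 bp from the start of the neighbouring gene Sepp1.

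**Figure D3:**
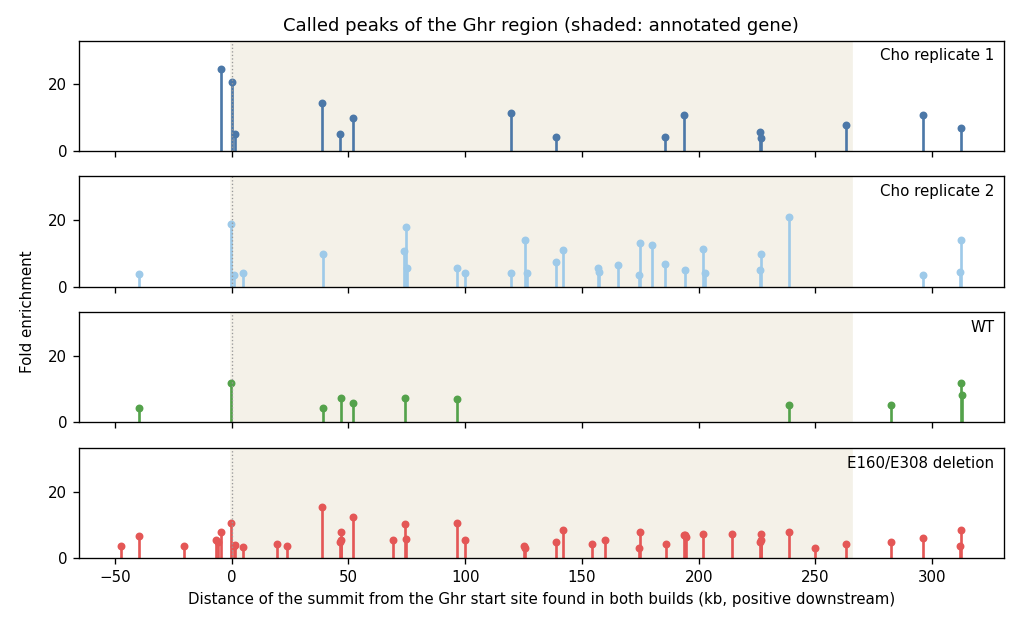
Called peaks of the Ghr region by distance of the summit from the start site in kb (x axis) and fold enrichment (y axis), with 1 panel per library and the annotated gene shaded. The panels hold 15, 31, 11 and 46 stems from top to bottom, so WT has the fewest and the double deletion the most.

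Igf1r, the signalling receptor for both ligands, had promoter fold enrichments of 10.1, 9.81, 8.04 and 7.12 in Cho1, Cho2, WT and the double deletion. The Cho mean was 9.97 ± 0.227 (SD, n = 2), from a Cho1 summit 559 bp upstream and a Cho2 summit 59 bp downstream of the start site, whose scaled pileups were 16.8 and 63.4. The highest WT summit lay 420 bp upstream and the highest deletion summit 60 bp downstream, in called intervals that did not overlap. At overlapping peaks the deletion to WT log2 ratio was -0.22 upstream, with a scaled ratio of 0.769 (0.454 to 1.32), and -0.12 downstream, with 0.821 (0.484 to 1.41).

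The Igf1r gene is long, and its region held more peaks than that of any other member: 30, 65, 36 and 61 in the same order. Of its 74 sites, 20 were called in all 4 libraries. The strongest of these was the intron site 69695 bp downstream shown above, with 31.2, 21.4, 16.3 and 14.8, and it was the highest peak of the region in 3 of the 4 lists. Cho2 had a higher one, 22.3 at 328175 bp, which lies within the longer GRCm38 gene region but past the end of the NCBIM37 region. An annotated internal start site near 196445 bp had 24.9 in Cho1, 6.42 in Cho2, 6.15 in WT and 7.49 in the double deletion. By scaled pileup Cho1 did not stand apart there, with 42.4, 31.2, 30.5 and 41.5 in the same order. The lowest shared log2 ratios of the whole set also came from Igf1r introns, -0.67 at 150563 bp (5.88 in WT and 3.69 in the double deletion) and -0.57 at 177871 bp (6.53 and 4.40), both with scaled intervals that include 1.

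Igf2r, which clears IGF2, had a weak promoter peak, at 4.64, 3.18, 5.84 and 6.62 in Cho1, Cho2, WT and the double deletion. The stronger peak of the gene lay 28398 bp downstream, 3 bp from the start site of Airn. It had 8.87, 15.3, 13.0 and 13.0, so the start of the antisense transcript was above the Igf2r promoter in every library. The scaled pileup was 88.6 in WT and 78.3 in the double deletion, a ratio of 0.883 (0.554 to 1.43).

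Upstream of Igf2r, an intron of Airn 13426 bp before the Igf2r start held the highest WT peak of the region, at 15.2, with 16.0, 7.77 and 12.8 in Cho1, Cho2 and the double deletion. The highest Cho1 peak, 16.9 at 21918 bp upstream, was also in an Airn intron, with 7.60, 10.5 and 8.95 in Cho2, WT and the double deletion. The region had the highest peak density of the set, 15.5 per 100 kb in WT and 19.8 in the double deletion, against medians of 5.84 and 10.5 over all gene regions.

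**Figure D4:**
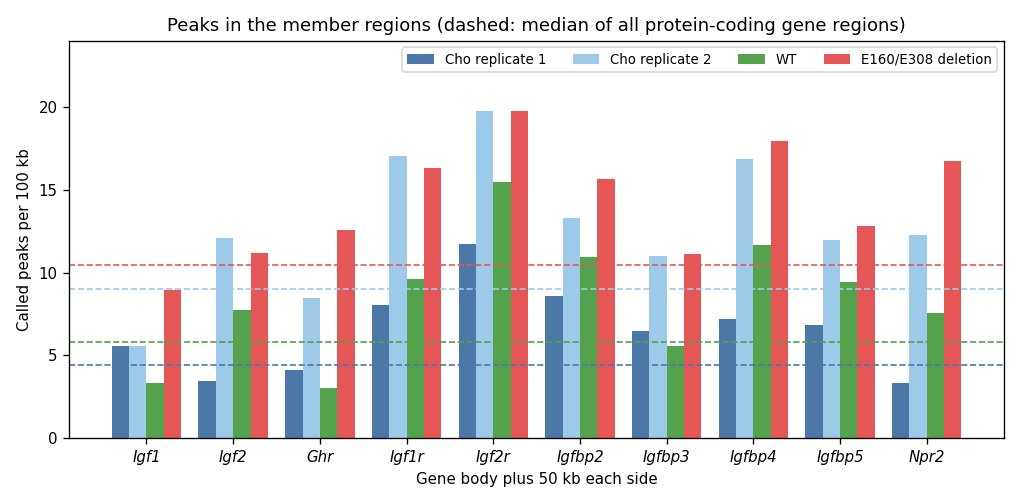
Called peaks per 100 kb (y axis) in each gene body plus 50 kb on each side (x axis); bars are single libraries and dashed lines are the medians over all protein-coding gene regions in the same colours. Igf1 and Ghr have the lowest WT bars, at 3.36 and 3.01, and Igf2r the highest, at 15.5.

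The binding protein genes had promoter peaks in every library. Igfbp2 had 3.38 in Cho1, 8.14 in Cho2, 6.30 in WT and 8.08 in the double deletion. Igfbp3, the main carrier of IGFs in serum, had 5.49, 4.55, 4.40 and 4.27. Igfbp4, an inhibitor of IGF action that the protease PAPPA cleaves, had 3.80, 4.34, 8.41 and 7.54. Igfbp5, which binds to extracellular matrix, had 5.49, 3.47, 5.02 and 4.69. Cho2 had higher peaks near outer start sites annotated in GRCm38 but not in NCBIM37. These were 14.1 at Igfbp4, 1285 bp upstream of the start site used here, and 8.22 at Igfbp3, 1997 bp upstream. At Igfbp4, WT and the double deletion had 8.33 and 8.59 in overlapping peaks 1306 bp upstream by the WT summit.

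At these 4 promoters the Cho means were 5.76 ± 3.37, 5.02 ± 0.661, 4.07 ± 0.380 and 4.48 ± 1.43 (SD, n = 2). The deletion to WT log2 ratios were 0.36, -0.04, -0.16 and -0.10, and every scaled interval includes 1. The Igfbp5 Cho mean joins separate peaks, with the Cho1 summit 908 bp downstream and the Cho2 summit 101 bp upstream of the start site. At Igfbp5 the highest WT and deletion summits were 280 and 53 bp upstream and their called intervals did not overlap.

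Igfbp4 was stronger at an annotated internal start site, 6047 bp downstream. Fold enrichment there was 8.87 in Cho1, 22.3 in Cho2, 11.2 in WT and 13.5 in the double deletion, above the outer promoter in all 4. Its region also held the site 16827 bp upstream, 228 bp from the start of Top2a, with 13.5, 21.4, 15.8 and 18.3.

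Each binding protein gene had a distal site above its promoter. For Igfbp3 this was the intergenic site 24007 bp upstream shown above, with 41.0 in Cho1, 14.8 in Cho2, 10.7 in WT and 12.6 in the double deletion. By scaled pileup, WT and the double deletion were close there, at 41.6 and 41.5, while Cho1 stood at 70.2. A site 19373 bp downstream of the Igfbp3 start had the highest fold enrichment of any deletion peak without a WT peak over it, at 12.9. It was called in Cho1 at 3.80 and in Cho2 at 11.2. The strongest WT peak of the Igfbp3 region without a deletion peak over it, 13359 bp upstream, had 5.14.

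Igfbp2 and Igfbp5 are neighbours on chromosome 1, and their regions share 11 WT and 15 deletion peaks, so their counts are not separate measurements. An intergenic site 25826 bp upstream of Igfbp2 was called in all libraries, with 11.4, 21.3, 13.0 and 19.7. The highest WT and deletion peaks of the Igfbp5 region lay 11098 and 11119 bp upstream of that gene, at 9.95 and 13.0, with 11.5 in Cho2 and no call in Cho1. In an intron of Igfbp2, Cho2 had 24.5 at 15035 bp, where Cho1, WT and the double deletion had 9.29, 7.34 and 10.5.

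Among the members called in both libraries, Npr2 had the largest promoter difference between WT and the double deletion. Fold enrichment was 9.76 in Cho2, 6.50 in WT and 10.2 in the double deletion, a log2 ratio of 0.65, and the scaled ratio of 1.46 has an interval that includes 1 (0.750 to 3.03). In Cho1, whose list used 1 constant background, the site was not called, which places its pileup at 10.1% or less of the WT value after scaling (2.83% to 30.3%). Of 11445 genes with promoter peaks in the other 3 libraries, 807 (7.05%) lacked one in Cho1. The absence depends on the window, since a site 1533 bp upstream was called in every library, with 5.91, 16.2, 9.82 and 9.10, and within 2 kb Cho1 had a promoter peak at all 10 members. The miRNA AL732626.1 starts 231 bp from the WT summit.

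The region of Npr2 is rich in genes, and its strongest shared sites belonged to neighbours. Fold enrichment 24584 bp downstream, 53 bp from the start of Hint2, was 22.8, 21.7, 14.8 and 14.9 in Cho1, Cho2, WT and the double deletion. At 37292 bp, 60 bp from a start site of Tmem8b, it was 16.0, 19.9, 16.9 and 13.1, and there the scaled ratio of deletion to WT was 0.589 (0.384 to 0.905). The highest Cho2 and deletion peaks of the region, 23.7 and 18.6, lay 47182 and 47206 bp upstream, near the start of Msmp, where WT had 14.5. A site in a Tmem8b intron at 40347 bp had the third lowest log2 ratio of the set, -0.52, from 7.94 in WT and 5.54 in the double deletion.

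Among the members with a promoter peak in both libraries, promoters differed little between WT and the double deletion. With the highest peak at any annotated start site, the median log2 ratio over the 9 members called in both was -0.04, with a range of -0.17 to 0.65, and the median over 11894 genes was 0.02. At the start sites found in both builds the members' median was -0.10. None of the 9 was 2-fold higher (1.12% of genes) or 2-fold lower (0.0252%). Igf1, not called in WT, has no ratio and is not among them.

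Over the whole regions, promoters included, the lists shared most WT peaks. The 10 regions held 111 peaks in Cho1, 221 in Cho2, 133 in WT and 245 in the double deletion. Of the 133 WT peaks, 121 were overlapped by a deletion peak, which is 91.0% (Clopper-Pearson 95% interval 84.8% to 95.2%) against 95.9% over the whole WT list, and 12 were not (4.06% of all WT peaks). Of the 245 deletion peaks, 129 had no WT peak over them (50.6% of all deletion peaks).

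At the 121 shared WT peaks the median log2 ratio of fold enrichment was 0.24, against 0.28 at all 87274 shared peaks. By scaled pileup both medians were close to 0, at -0.001 and -0.012. At least 2-fold higher in the double deletion were 5 peaks of the 121 (7.79% of all shared peaks), those named above at Igf1 and Ghr among them, and 0 were 2-fold lower (0.071%). The scaled interval lay above 1 at 2 peaks, the weaker Igf1 summit and the Ghr site at 38922 bp, which is 1.65% against 1.99% over the whole list, and below 1 at 1 peak, near Tmem8b (0.826% against 1.33%).

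**Figure D5:**
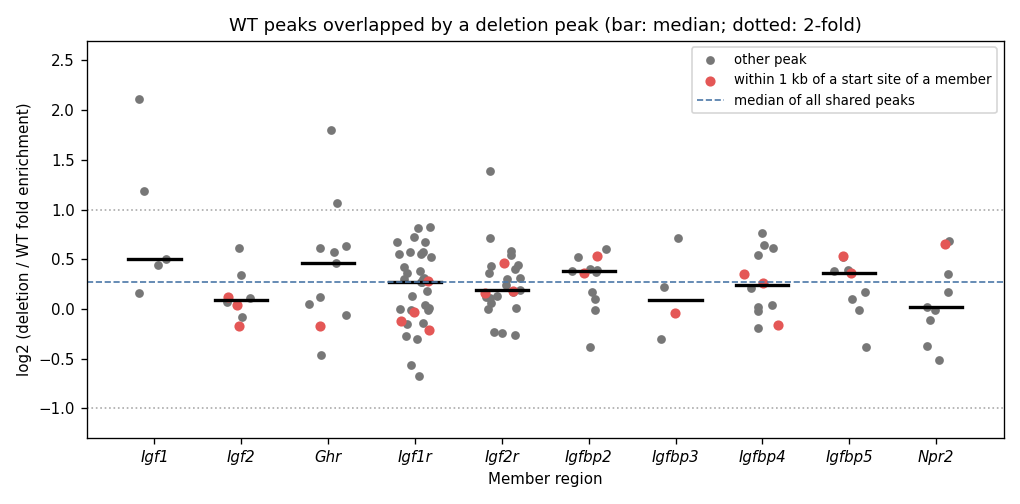
Log2 ratio of deletion to WT fold enrichment (y axis) at each WT peak overlapped by a deletion peak, by member region (x axis); grey dots are distal peaks, red dots lie within 1 kb of a start site of a member, black bars are medians and the dashed line is the median of all shared peaks, 0.28. The dots above 1 are in the Igf1, Ghr and Igf2r regions, and none lies below -1; peaks in both the Igfbp2 and Igfbp5 regions are drawn in each.

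Across all libraries the member regions held 301 sites, of which 60 (19.9%) were called in all 4, against 25.8% over the regions of 14222 genes. Sites called in 1 library alone were 46 in Cho2, 42 in the double deletion, 18 in Cho1 and 8 in WT, which is also the order of their depth. As shares of the member sites these were 15.3%, 13.95%, 5.98% and 2.66%, against 16.4%, 12.95%, 5.00% and 0.95% over all genes. Members differed widely: 16 of 48 Igf2r sites were common to all libraries, but 3 of 50 at Ghr and 1 of 22 at Igf1.

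Other genes of the axis mostly had promoter peaks as well. Of 30 genes listed, 24 had a promoter peak in Cho1 (62.6% of all protein-coding genes) and 28 in Cho2 (69.3%). WT had one at 27 (65.9%), the double deletion at 27 (71.4%), and all 4 libraries at 22 (58.8%). Igfbp1, a binding protein made mainly in liver, and Pappa2, a protease for binding proteins, had none in any library. Igfbp6, Igfals, Ghrhr and Gh had none in Cho1 but were called in the other libraries. Gh had 18.6 in Cho2, 5.88 in WT and 11.7 in the double deletion, and at Igfals, which encodes a partner of IGFBP3 in serum, the values were 14.6, 9.76 and 13.2.

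Stc1, which encodes an inhibitor of PAPPA, had the pattern of Igf1, with 4.22 and 10.04 in the Cho replicates, 7.60 in the double deletion and no call in WT. Pappa encodes the protease that releases IGF from IGFBP4. It was called in the Cho replicates and WT, at 3.38, 3.10 and 5.99, and not in the double deletion. The Cho1 value is close to the lowest of that list, 2.96. For neither Stc1 nor Pappa was a limit on the uncalled value computed. Nppc, the gene of the NPR2 ligand, was called throughout, at 5.07, 23.6, 14.5 and 16.0. Of the 26 genes called in WT and the double deletion, none was 2-fold higher (1.12% of genes) or 2-fold lower (0.0252%). Their log2 ratios lay between -0.31 and 0.99, with a median of 0.02.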

How the data were processed

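Per the study's methods and the submitters' processing notes, the authors trimmed reads with fastp, aligned them to mm9 with Bowtie2 2.4.4, removed duplicates with Picard, and called peaks per library with MACS2 2.2.4 at a q-value of 0.05. In the deposited lists, fold enrichment is the ratio that MACS2 forms from the pileup at a summit and its local background. The authors' lists also hold the −log10 p-value and −log10 q-value of each peak, and the deposited score is a whole-number form of the −log10 q-value.

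1 row per interval, that of highest fold enrichment, was kept. Gene positions were NCBIM37 (GENCODE) for Cho replicate 1, WT and the deletion, and GRCm38.p6 (RefSeq) for Cho replicate 2, because 69.3% of genes held a Cho replicate 2 promoter peak with GRCm38 positions and 26.3% with NCBIM37 positions. No coordinates were converted. Sites were joined across builds by distance from start sites whose 300-base RefSeq promoter sequence occurs once near the gene in NCBIM37. In member regions with more than 1 such start site, their positions in both builds differed by a constant. The Igf1 and Igf2r regions held 1 each, so this could not be checked there. The fold enrichment and p-value of a peak together fix its whole summit pileup under the Poisson model of MACS2, and this was recovered for 99.97% to 100% of peaks. The solution, tested on simulated data, recovered 100% of 20000 pileups. A scaled pileup is that value over the most frequent background of the library, and that background over the smallest peak width gives the tags per Mb. Cho replicate 1 has 1 constant background, so its fold enrichments are not on the footing of the others.

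Peaks overlapped at 1 bp or more. Each WT peak was paired with the overlapping deletion peak of highest fold enrichment. Intervals are 95% exact (Clopper-Pearson, conditional for ratios) and cover counting error only. Named sites are the strongest promoter and region peak of each member and library, the 3 largest and 3 smallest shared log2 ratios, and the 3 strongest unshared peaks of WT and the deletion; other sites in the text, those called in all 4 libraries and those near another gene's start, were chosen after their values were seen. One site that this rule names is not reported here. The members and lists were chosen with earlier results of these data known. Alternatives covered windows, q-values, equal peak numbers, overlap and measure. Python 3.11.15, pandas 2.3.3, SciPy 1.17.1 and pysam 0.24.0 were used.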

Additional observations from a re-analysis of the deposited data

How the results depend on the processing

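Over 16 alternatives, 95 of 116 recomputed values stayed within 1.5 times (counts and ratios), the replicate spread, the interval or the spread over sites, and 21 did not. With the 76242 strongest peaks of each list, the deletion to WT ratio of peak numbers in the member regions turned below 1, from 1.84 to 0.902, the overlapped share of WT peaks fell to 74.5%, and Cho replicate 2 and the deletion library each kept 92 peaks; the ratio was 1.78 for Ghr and 1.67 for Igf1. A stricter q-value of 1e-05 left 158 deletion peaks and raised the overlapped share to 96.7%. With gene bodies alone the regions held 70, 134, 67 and 133 peaks in the 4 lists (both Cho replicates, then WT, then deletion), and with 100 kb flanks 344, 222 and 385 in the last 3. With −log10 q in place of fold enrichment, the median log2 ratio was 0.41 at promoters and 0.80 at shared peaks. The median Cho promoter mean of 6.86 was 11.1 with a 2 kb window, 5.76 at start sites found in both builds (chosen after seeing the data), and 8.22 to 8.45 when either replicate was left out. A 2 kb window, the only setting tried that could add a WT promoter peak at Igf1, added none, but it gave Cho replicate 1 a peak at Npr2 and so all 10 members. Without Ghr, also chosen after seeing the data, the ratio was 1.63. The causes were not tested. No paired analysis was possible because each genotype has 1 library, and the Cho numbers pair with neither genotype. WT, the shallowest library, limits what can be called absent.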
